A study of Mus musculus with 2 samples.

Results

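The 9 genes described here are Mir128-1, Mir128-2, Mir138-1, Mir138-2, Mir137 and Mir338, whose microRNAs are best known from neurons and glia, and Mir182, Mir183 and Mir96, a cluster best known from sensory cells. They are 9 of 2202 annotated microRNA genes counted in small RNA libraries of gastrocnemius, the large calf muscle. The genes were chosen by name with earlier results of these libraries known, so their levels and their differences between the libraries are given as description, without a test. The animals were untreated as far as the labels say: female B6CASTF1/J mice, the F1 hybrid of C57BL/6J with CAST/EiJ, at an age of 14 days. There was 1 group of 2 biological replicates, made from total RNA with inserts shorter than 30 nt, and no second tissue, age or genotype. In the biosample names, replicate 1 refers to 3 females and replicate 2 to 1. Both replicates carry the same donor identifier, and the labels do not say whether RNA was pooled.

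MicroRNAs are cut from hairpin transcripts as short single strands, and the seed, bases 2 to 8 of the strand, pairs with messenger RNAs and lowers their output. Many are made in 1 cell lineage, which is why a microRNA found in whole tissue can point to a cell type that is a small part of it. Skeletal muscle holds the endings of motor and sensory axons, the Schwann cells that wrap them and the sensory endings of muscle spindles, while the cell bodies of those neurons lie outside the muscle. These microRNAs are not all limited to nerve: miR-128 is also made in muscle cells, and the Mir183 cluster in epithelia and activated lymphocytes. The libraries came from whole tissue, so fewer cells of a type and less RNA per cell cannot be told apart.

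The mature sequences show which of these genes can be told apart by a read. All 9 genes matched RefSeq (GRCm38.p6, the assembly also called mm10), with 18 mature strands. The strand usually regarded as the active one is printed 5′ to 3′ for each, with the seed in capitals.
miR-128-3p (Mir128-1 and Mir128-2): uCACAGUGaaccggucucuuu
miR-138-5p (Mir138-1 and Mir138-2): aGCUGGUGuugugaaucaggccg
miR-137-3p: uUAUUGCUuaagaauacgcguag
miR-338-3p: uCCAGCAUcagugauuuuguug
miR-182-5p: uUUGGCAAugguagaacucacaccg
miR-96-5p: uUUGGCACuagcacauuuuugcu
miR-183-5p: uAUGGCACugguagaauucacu

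The 3 strands of the sensory cluster differ little in the seed. Counting from 1 at the 5′ end, miR-96-5p differs from miR-182-5p by A8C within the seed, and miR-183-5p differs from miR-96-5p by U2A. The other 4 seeds are unlike each other and unlike these. Among all RefSeq mature strands, the seeds of miR-137-3p, miR-338-3p, miR-182-5p and miR-183-5p occurred in no other gene. The seed of miR-96-5p occurred also in miR-1271-5p, whose gene (Gm24195) had 0 reads in both libraries, which allows up to 1.12 CPM in replicate 1 and 0.699 CPM in replicate 2.

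The Mir128 and the Mir138 genes are pairs that encode the same main strand from different chromosomes. Their hairpins are shown because the shared run, in capitals, decides what can be counted.
Mir128-1 hairpin: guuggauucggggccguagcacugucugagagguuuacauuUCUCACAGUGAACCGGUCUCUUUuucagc
Mir128-2 hairpin: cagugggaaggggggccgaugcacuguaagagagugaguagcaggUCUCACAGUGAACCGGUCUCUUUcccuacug
Mir138-1 hairpin: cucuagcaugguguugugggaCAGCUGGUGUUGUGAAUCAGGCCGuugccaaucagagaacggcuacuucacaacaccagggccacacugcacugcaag
Mir138-2 hairpin: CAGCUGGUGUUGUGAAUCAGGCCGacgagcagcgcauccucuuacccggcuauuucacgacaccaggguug
The run is 23 nt in the Mir128 pair and covers the whole of miR-128-3p. In the Mir138 pair it is 24 nt and covers the whole of miR-138-5p. A read that lies inside a run aligns to both loci, and in the layout of these files multiply aligned reads are tallied apart and add to no gene. The counts of these 4 genes therefore come from reads that reach past the run or lie on the partner arm. They do not show the level of miR-128-3p or miR-138-5p, or its ratio between the libraries. The partner arms do differ: miR-128-1-5p reads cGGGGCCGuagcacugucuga and miR-128-2-5p reads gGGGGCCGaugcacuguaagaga, with the same seed, whereas miR-138-1-3p (cGGCUACUucacaacaccaggg) and miR-138-2-3p (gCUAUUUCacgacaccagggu) have different ones. The deposited counts do not separate the arms.

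The remaining genes have no near copy among annotated hairpins. The longest stretch shared with any other annotated hairpin, on either strand, was 11 nt for Mir137, Mir182 and Mir96 and 14 nt for Mir183. For Mir338 it was 87 nt with Mir3065, which is the same stretch of chromosome 11 annotated on the opposite strand. The rest of the genome was not searched. Hairpin GC content of the 9 genes ran from 45.2% (Mir137) to 57.7% (Mir138-2), all within the middle part of the 2202 hairpins (quartiles 42.9% and 57.9%, median 50.8%).

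Levels are CPM: same-strand reads of a gene per 1000000 reads that the library had assigned to microRNA genes. Replicate 1 had 2672454 assigned reads, which makes a single read 0.374 CPM, and replicate 2 had 4292012, which makes it 0.233 CPM. Counts were not divided by length, because reads come from mature strands of 21 to 25 nt whatever the hairpin. Of 9 listed skeletal muscle genes, 8 were expressed at 1 CPM or more in both libraries and 6 had a mean of at least 10 CPM, led by Mir206 at 89900 ± 7361 CPM (SD, n = 2). The lowest were Mir1a-1 at 8.24 CPM, Mir133a-1 at 3.08 CPM and Mir133a-2 at 1.42 CPM. The Mir1a and the Mir133a genes are copies, and reads that align to more than 1 copy add to no gene. These counts therefore do not show the level of miR-1 or miR-133a. Intervals are exact (Clopper-Pearson, or the conditional binomial form for ratios) at 95% and cover counting error only. The replicates differed far beyond such error, with a chi-square of 144 per degree of freedom over the 260 genes at a mean of 10 CPM or more.

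Together the 9 genes held 0.249% ± 0.0110 of assigned reads (n = 2), 2417 CPM in replicate 1 and 2572 CPM in replicate 2. The sum combined opposite differences in counted reads within the set, and those of the Mir128 and Mir138 genes leave out the shared run. The Mir128 genes together stood at 1912 CPM in replicate 1 and at 1675 CPM in replicate 2, whereas the other 7 genes had 504 and 896 CPM, 1.78-fold more in replicate 2 (95% counting interval 1.67 to 1.89). Most of this was Mir338, at 385 and 632 CPM. Without Mir338 the rest had 120 and 264 CPM, 2.21-fold more in replicate 2 (1.95 to 2.51). Of these 7 genes only Mir96, with 2 reads in each library, was not higher in replicate 2. Of the 9 genes, 8 were expressed at 1 CPM or more in both libraries, against 16.7% of all annotated microRNA genes. Mir96 was the exception. Expression was part of how the genes were chosen, so nothing is read from that share.

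**Figure D1:**
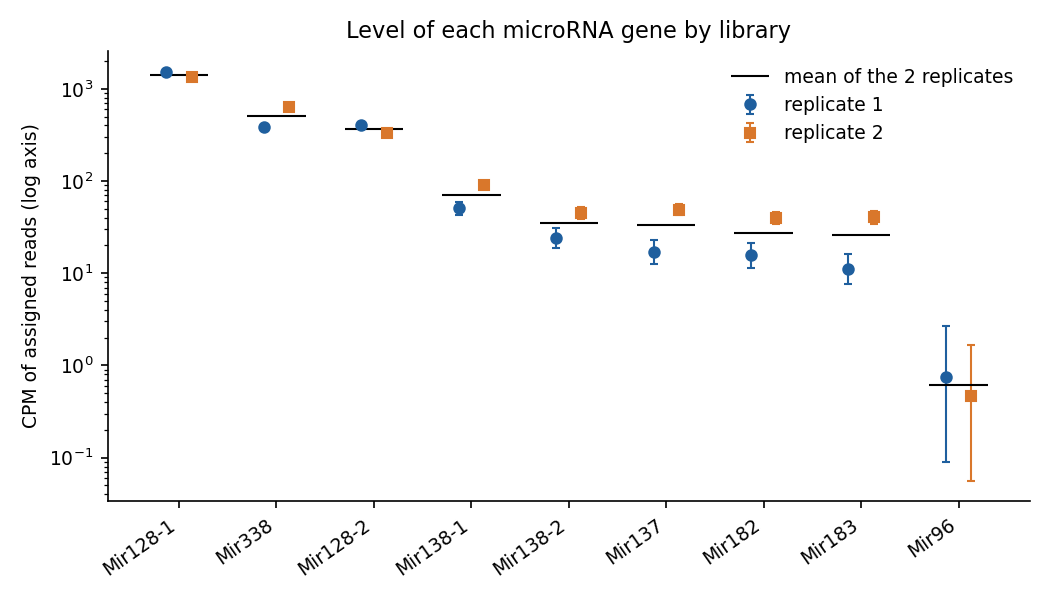
CPM (log axis) of each of the 9 genes in replicate 1 (circles) and replicate 2 (squares), with 95% counting intervals and the mean of both libraries as a bar. Levels run from 1424 CPM for Mir128-1 to 0.607 CPM for Mir96, and the squares lie above the circles for Mir338, both Mir138 genes, Mir137, Mir182 and Mir183.

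Mir128-1 was the most abundant of the set. miR-128 is among the commonest microRNAs of the brain, where it restrains the excitability of neurons. Mir128-1 lies in an intron of R3hdm1, on the same strand (chromosome 1, 128202361 to 128202430). It had 4018 reads (1503 CPM) in replicate 1 and 5773 reads (1345 CPM) in replicate 2, a mean of 1424 ± 112 CPM and rank 63 of the 2202 genes. The libraries lay close together, with an SD of 7.87% of the mean, the smallest of the 9 genes. Replicate 1 was 1.12-fold higher (1.07 to 1.16), about the median difference of 1.13-fold in either direction over the 260 genes at a mean of 10 CPM or more.

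Mir128-2 lies in an intron of Arpp21, a gene of a phosphoprotein enriched in neurons (chromosome 9, 112118636 to 112118711, on the minus strand with its host). It had 1092 reads (409 CPM) in replicate 1 and 1418 reads (330 CPM) in replicate 2, a mean of 369 ± 55.3 CPM. Replicate 1 was again the higher library, by 1.24-fold (1.14 to 1.34). Within a library, Mir128-1 had 3.68 times the reads of Mir128-2 in replicate 1 (3.44 to 3.94) and 4.07 times in replicate 2 (3.84 to 4.32). Counted reads of the R3hdm1 copy thus exceeded those of the Arpp21 copy in both libraries. Because the main strand is shared, that ratio concerns only reads assigned to 1 of the copies. The same holds for the ratios between the libraries, which do not show that of miR-128-3p. Whether each such read came from the copy it was assigned to was not tested.

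Mir338 came second by mean level. miR-338 is a microRNA of myelinating glia that promotes the maturation of oligodendrocytes, and its host, Aatk, is a kinase gene active in the nervous system. The hairpin lies in an intron of Aatk (chromosome 11, 120014765 to 120014862, minus strand as its host). It had 1028 reads (385 CPM) in replicate 1 and 2712 reads (632 CPM) in replicate 2, a mean of 508 ± 175 CPM. Replicate 2 was higher by 1.64-fold (1.53 to 1.77). The opposite strand of the locus, annotated as Mir3065, had 4 reads in replicate 1 and 1 read in replicate 2, so nearly all reads came from the Mir338 strand.

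The Mir138 genes stood lower and moved together. miR-138 is enriched in brain, where it limits the size of dendritic spines. Mir138-1 lies in an exon of the transcribed pseudogene Gm47135 (chromosome 9, 122682876 to 122682974). It had 135 reads (50.5 CPM) in replicate 1 and 386 reads (89.9 CPM) in replicate 2, a mean of 70.2 ± 27.9 CPM. Mir138-2 lies in an exon of the long noncoding gene C78859, between Nup93 and Slc12a3 (chromosome 8, 94324311 to 94324381). It had 65 reads (24.3 CPM) and 194 reads (45.2 CPM), a mean of 34.8 ± 14.8 CPM. Both were higher in replicate 2, Mir138-1 by 1.78-fold (1.46 to 2.18) and Mir138-2 by 1.86-fold (1.40 to 2.50). Mir138-1 had 2.08 times the reads of Mir138-2 in replicate 1 (1.53 to 2.84) and 1.99 times in replicate 2 (1.67 to 2.38), so the ratio of the copies differed between the libraries by less than its counting interval. The pair shares its main strand, so these are not independent members.

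**Figure D2:**
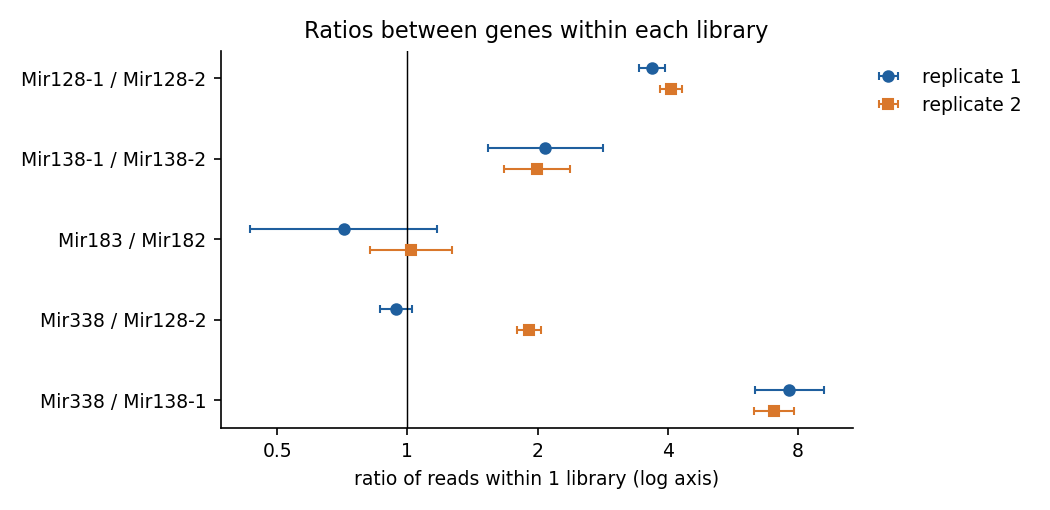
Ratio of reads between genes within each library (log axis), for replicate 1 (circles) and replicate 2 (squares), with 95% counting intervals. The Mir138 copies stood at 2.08 and 1.99, Mir338 over Mir138-1 at 7.61 and 7.03, whereas Mir338 over Mir128-2 moved from 0.941 to 1.91.

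Mir137 encodes a microRNA that acts in neurogenesis and at synapses. Its hairpin lies in an exon of the noncoding transcript gene Gm26871, with Dpyd as the nearest protein-coding gene (chromosome 3, 118433857 to 118433929; Dpyd begins 128 kb away). It had 46 reads (17.2 CPM) in replicate 1 and 210 reads (48.9 CPM) in replicate 2, a mean of 33.1 ± 22.4 CPM. Replicate 2 was higher by 2.84-fold (2.06 to 4.00), and the counting intervals of the libraries, 12.6 to 23.0 CPM and 42.5 to 56.0 CPM, did not overlap.

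Mir182, Mir183 and Mir96 lie in 1 cluster of 3820 bases on the minus strand of chromosome 6 (30165918 to 30169737), between Nrf1 and Ube2h, with no annotated host gene. The cluster is transcribed in hair cells, photoreceptors and the sensory neurons of dorsal root ganglia, and changes in the seed of miR-96 cause hearing loss in mice and people. In the direction of transcription Mir183 comes first, Mir96 follows 116 bases later and Mir182 a further 3453 bases on.

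Mir183 (30169668 to 30169737) had 30 reads (11.2 CPM) in replicate 1 and 173 reads (40.3 CPM) in replicate 2, a mean of 25.8 ± 20.6 CPM. Mir182 (30165918 to 30165992) had 42 reads (15.7 CPM) and 170 reads (39.6 CPM), a mean of 27.7 ± 16.9 CPM. For both genes replicate 2 was the higher library and the counting intervals did not overlap. The ratios of replicate 2 over replicate 1 were 3.59 for Mir183 (2.43 to 5.48) and 2.52 for Mir182 (1.79 to 3.62). Reads of the outer genes were near equal within a library, with Mir183 at 0.714 times Mir182 in replicate 1 (0.432 to 1.17) and 1.02 times in replicate 2 (0.819 to 1.27).

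Mir96 (30169446 to 30169551) lies between these genes and had 2 reads in each library, 0.748 CPM in replicate 1 (0.0906 to 2.70) and 0.466 CPM in replicate 2 (0.0564 to 1.68). Both values are under the limit that 3 reads set, so no difference between the libraries was detectable at this depth. Mir183 had 15.0 times the reads of Mir96 in replicate 1 (3.81 to 130) and 86.5 times in replicate 2 (23.6 to 720). The gap between Mir96 and its neighbours was therefore larger than counting error in both libraries, although the hairpins lie within 1 short stretch.

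**Figure D3:**
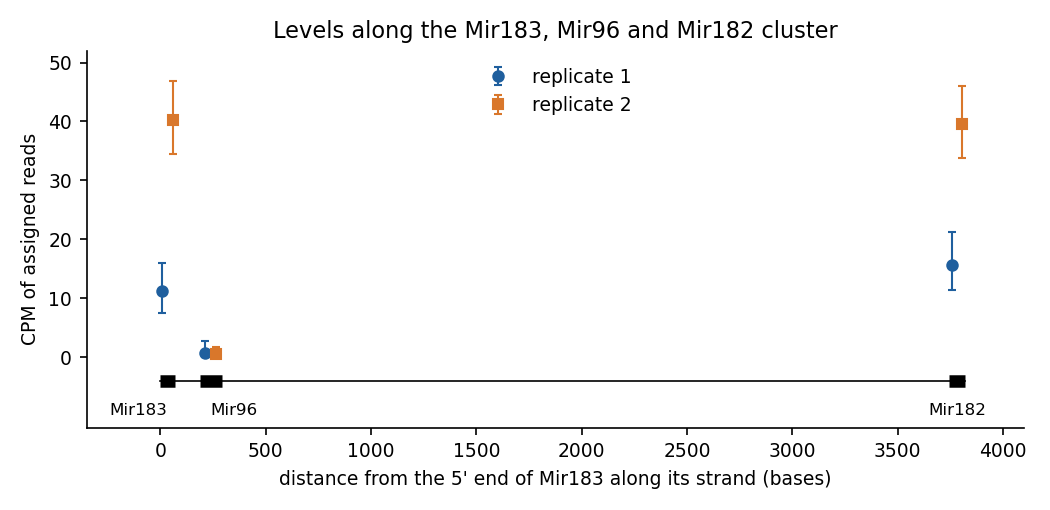
CPM in replicate 1 (circles) and replicate 2 (squares), each with its 95% counting interval and offset slightly sideways, against the distance in bases from the 5′ end of Mir183. Black blocks mark the hairpins to scale. Mir183 and Mir182 at the ends reach 40.3 and 39.6 CPM in replicate 2, while Mir96 between them stays under 1 CPM in both libraries.

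By mean level the order was Mir128-1, Mir338, Mir128-2, Mir138-1, Mir138-2, Mir137, Mir182, Mir183 and Mir96. It ranks counted reads, and those of the Mir128 and Mir138 genes leave out reads inside the shared run. Their places are thus those of lower bounds. Mir338 and Mir128-2 changed places between the libraries, since Mir338 had 0.941 times the reads of Mir128-2 in replicate 1 (0.864 to 1.03) and 1.91 times in replicate 2 (1.79 to 2.04). Mir138-2 and Mir137 also changed places, as did Mir182 and Mir183. From Mir138-2 down to Mir183 no neighbours differed by more than the larger of their SDs. The steps from Mir128-1 to Mir338, from Mir128-2 to Mir138-1, from Mir138-1 to Mir138-2 and from Mir183 to Mir96 had the same direction in both libraries and exceeded that SD.

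The next question was how the set stood among all genes in the difference between the replicates. Among the 260 genes with a mean of at least 10 CPM, 8.46% were at least 1.5-fold higher in replicate 2 and 2.31% at least 1.5-fold lower. Of the 8 members at that level, 6 were at least 1.5-fold higher in replicate 2 and 0 at least 1.5-fold lower. Ranked by this ratio among the 260 genes, Mir183 stood at 1, Mir137 at 3, Mir182 at 4, Mir138-2 at 10, Mir138-1 at 13 and Mir338 at 17, while Mir128-1 and Mir128-2 stood at 197 and 236. The counting interval lay above 1 for those 6 members, against 33.1% of the genes, and below 1 for the Mir128 genes, against 25.8%. The median log2 ratio was 0.86 for the 8 members and 0.04 for all 260 genes. This pattern was known when the set was proposed, the Mir138 genes share a strand and Mir182 and Mir183 share a cluster, so nothing further is read from these counts. With 1 library on each side, the ratios compare libraries and not animals. Those of the Mir128 and Mir138 genes also leave out reads inside the shared run.

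**Figure D4:**
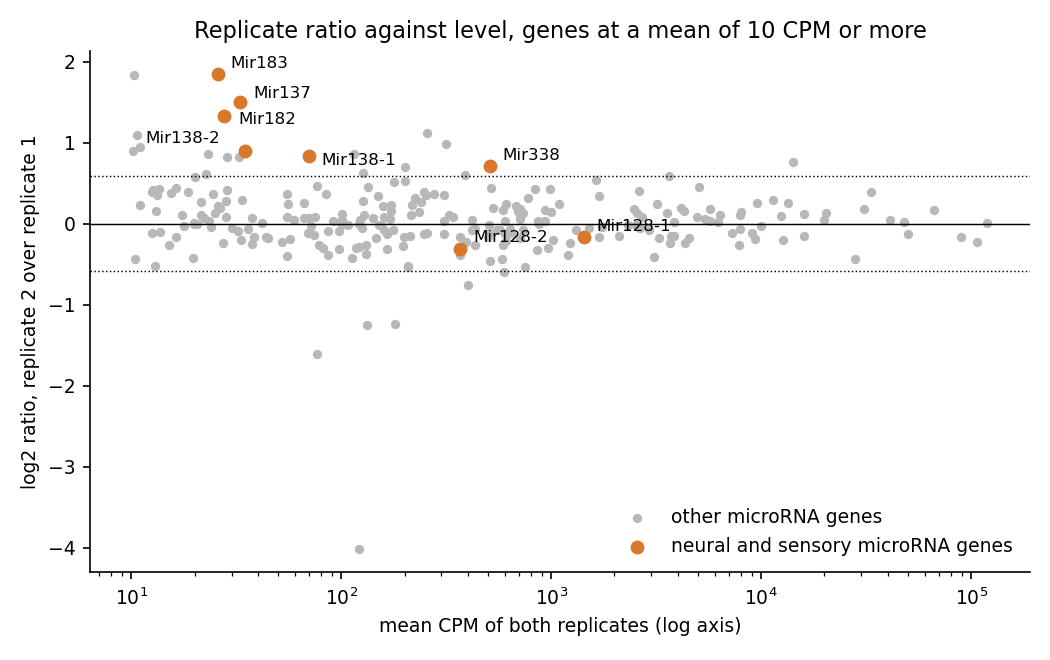
Log2 ratio of replicate 2 over replicate 1 against mean CPM (log axis) for 260 microRNA genes at a mean of 10 CPM or more. Orange points are the 8 members at that level and dotted lines mark 1.5-fold. Mir183, Mir137 and Mir182 lie near the top edge, and both Mir128 genes lie below 0.

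A longer list of microRNAs known from nervous tissue was set beside the members. All 35 were annotated, 18 were expressed at 1 CPM in both libraries, 9 had no read in either, and 8 reached a mean of 10 CPM. These 8 were Mir149 (3681 ± 431 CPM), which is also widely made outside the nervous system, Mir666 (308 ± 4.99 CPM), Mir132 (173 ± 19.7 CPM), Mir204 (135 ± 29.5 CPM), Mir598 (33.8 ± 4.93 CPM), Mir34c (26.4 ± 2.47 CPM), Mir190b (19.8 ± 0.0196 CPM) and Mir7-1 (12.6 ± 0.694 CPM). None of the 8 differed by 1.5-fold in either direction, and 5 were higher and 3 lower in replicate 2. The highest ratio among them was that of Mir204, a microRNA of retina and choroid plexus, at 1.37-fold (1.19 to 1.57), and Mir132, a microRNA induced by neuronal activity, stood at 1.18-fold (1.04 to 1.32). Their median log2 ratio was 0.11. The summed list was 4688 CPM in replicate 1 and 4199 CPM in replicate 2, most of it Mir149, and without Mir149 it was 702 and 824 CPM. The Mir124a genes, which encode the most abundant microRNA of neurons from identical copies, had 0 reads, and of the 3 Mir9 genes only Mir9-3 had any, with 4 reads in replicate 2. A count of 0 allows up to 1.12 CPM in replicate 1 and 0.699 CPM in replicate 2 of assigned reads. The Mir124a and the Mir9 genes encode identical mature strands, and multiply aligned reads add to no gene, so these counts do not show the level of miR-124 or miR-9.

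**Figure D5:**
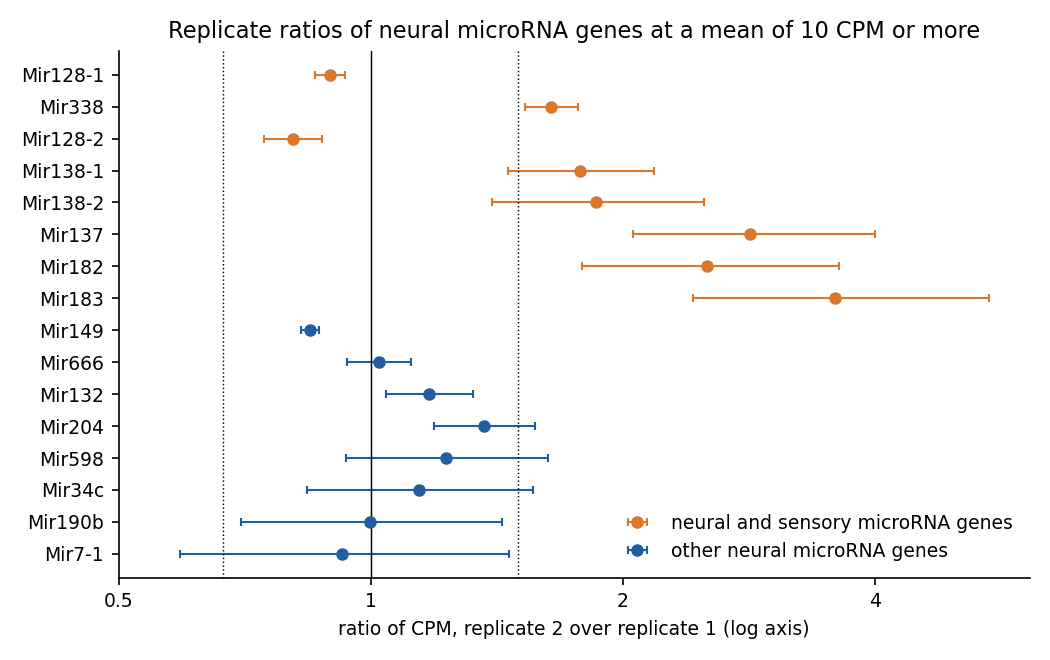
Ratio of CPM in replicate 2 over replicate 1 (log axis) with 95% counting intervals, for the 8 members (orange) and 8 other neural microRNA genes (blue) at a mean of 10 CPM or more. Dotted lines mark 1.5-fold in either direction. The points of 6 members lie to the right of the line, with Mir183 at 3.59, and all 8 blue points lie between the lines.

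Markers of other cell types moved between the libraries as well. The 5 leukocyte genes summed to 1855 CPM in replicate 1 and 1347 CPM in replicate 2, with 4 of the 5 lower in replicate 2. The erythroid genes Mir451a and Mir144 summed to 437 and 185 CPM, and the hepatocyte gene Mir122 had 229 and 14.2 CPM. The 7 epithelial genes, relevant because epithelia also make the Mir183 cluster, summed to 78.2 and 93.2 CPM, and only Mir203 and Mir205 reached a mean of 10 CPM. Mir203, a skin microRNA, stood at 58.7 and 60.8 CPM, while Mir205 had 6.74 and 14.4 CPM from 18 and 62 reads. Of the Mir200 family, which defines epithelia, Mir200c had 24 reads in replicate 1 and 36 in replicate 2 (8.98 and 8.39 CPM), Mir200b 7 and 15, Mir429 3 and 19, Mir200a 0 and 5, and Mir141 0 and 2. The skeletal muscle list summed to 96325 CPM in replicate 1 and 85876 CPM in replicate 2, nearly all of it Mir206 (95105 and 84695 CPM). Reads shared by the copies of Mir1a or of Mir133a add to no gene, so the sum leaves them out. Of the 6 skeletal muscle genes at a mean of at least 10 CPM, 3 were higher in replicate 2, among them Mir208b (1.83-fold), and 3 were lower. The part of these cell types in the ratios of Mir137, Mir338 and the sensory cluster was not tested.

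The genes outside the 9 that lay nearest to each member in level and ratio were taken by distance in log2(CPM + 1) over the 2 libraries. For Mir128-1 these were Mir15a (1489 and 1325 CPM, distance 0.03), Mir17 and Mir361, and for Mir128-2 they were Mir150 (414 and 317 CPM, distance 0.06), Mir106b and Mir425. Mir338 had no gene as close: its nearest were Mir134 (437 and 596 CPM, distance 0.20), Mir152 and Mir328, with ratios of 1.36, 1.15 and 0.993 against 1.64 for Mir338. Nearest among non-members to Mir138-1 was Mir340 (0.34), to Mir138-2 Mir467c (0.12), to Mir137 and Mir182 Mir1249 (0.48 and 0.39) and to Mir183 Mir199b (0.66). Over 2 libraries such a distance describes position only.

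The seed of miR-128 also overlaps that of miR-27. The 6 bases CACAGU, which are bases 2 to 7 of miR-128-3p, are also bases 3 to 8 of the miR-27 strands, shown with their own seeds in capitals.
miR-27a-3p: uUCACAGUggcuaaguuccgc
miR-27b-3p: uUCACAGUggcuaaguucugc
Mir27b stood at 4701 CPM in replicate 1 and at 3981 CPM in replicate 2, and Mir27a at 475 and 395 CPM. Among non-member genes at a mean of 10 CPM or more, no other mature strand shared 6 such bases, shifted by 1, with the main strand of a member. The partner arms of the members were not searched.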

How the data were processed

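Small RNA reads of 2 gastrocnemius libraries were used. The authors deposited unnormalised read counts for each microRNA gene, made on mm10 with GENCODE release M21, per the labels and the accompanying text. Which aligner and counter made them is not given in the sources used here. The same-strand counts were used, and the other columns were read from their order as unstranded and opposite-strand. Left out of totals were 4 lines that name no gene, with 66.6% (replicate 1) and 64.6% (replicate 2) of all reads.

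CPM, Clopper-Pearson intervals and conditional binomial intervals of ratios were computed with Python 3.11.15, numpy 2.4.6, pandas 2.3.3 and scipy 1.17.1, and the interval was tested on simulated counts. Those simulated counts held counting error only, so the check does not cover the further spread between the replicates. No test between groups was possible with 1 group, and p-values were not computed. Replicates are separate biosamples with the same donor identifier, so their spread may be partly technical. The members and lists were chosen with earlier results of these data known. Named genes were the members, other neural genes at a mean of 10 CPM, genes sharing a seed or copy, and the 3 nearest non-members in log2(CPM + 1) for members at 100 CPM or the 1 nearest for the rest. Marker list genes, Mir3065, and the Mir27 genes (6 shared seed bases) were named besides, as were neural genes under 10 CPM, and all of these outside the rule were chosen after their values were seen. Alternatives were unstranded counts, edgeR 4.0.16 TMM and DESeq2 1.42.0 size factors, other denominators, thresholds, summed copies and each replicate alone.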

Additional observations from a re-analysis of the deposited data

Results flagged for a closer look

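Multiply aligned reads, tallied apart from the genes, were 52.7% of the reads in replicate 1 and 52.4% in replicate 2. They were singled out as a signal outside the counts used. How many of them belong to miR-128-3p or miR-138-5p was not tested, because the deposited totals do not place them.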

How the results depend on the processing

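With 2 libraries, depth limits Mir96, at 2 reads in each. No paired analysis was possible because there was 1 group. No member's ratio changed direction under any alternative run. TMM and DESeq2 size factors shifted every log2 ratio by -0.03 and -0.02, and the 8 members at 10 CPM stayed expressed in each replicate alone. Unstranded counts set Mir338 to 0 in both libraries, so it had no ratio there. Summed copies stood at 1794 CPM for Mir128 and 105 CPM for Mir138, with log2 ratios of -0.19 and 0.85. These sums still leave out reads inside the shared run. The summed share was 0.267% with unstranded counts, where Mir338 was lost and the total was smaller, 0.0858% of all reads and 0.645% without the 10 most abundant genes, where only the denominator changed, and 0.242% to 0.257% in single replicates. Of the members, 1 was 1.5-fold higher in replicate 2 at a mean of 100 CPM, where 3 were measured, 3 were 2-fold higher (a limit added after seeing the data), and 4 passed with all reads as the denominator, where fewer reach 10. Among the 260 genes that reached 10 CPM, 22 (8.46%) were 1.5-fold higher in replicate 2 and 6 (2.31%) lower. Without a filter on low counts these were 92 and 88, counting only genes with reads in both libraries. How many genes had reads in both was not tallied, so these have no share beside them. The limit of 100 CPM left 176 genes, with 9 higher and 5 lower. With the 2-fold limit, 6 of the 260 genes (2.31%) passed as higher and 4 as lower. Genes outside the set were not counted with all reads as the denominator, so the 4 members there have no share to compare with.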

Other observations

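Below a mean of 10 CPM, several other neural genes had a higher CPM in replicate 2, as had several genes outside the neural list. The share of all genes at this level that were higher was not counted, so nothing particular to neural genes is read from them. Mir383 had 9 reads in replicate 1 and 47 in replicate 2, 3.25-fold higher in CPM (95% counting interval 1.58 to 7.55). Mir211 had 9 and 38 reads (2.63-fold, 1.25 to 6.18), and Mir219a-2, whose microRNA acts with miR-338 in oligodendrocytes, had 10 and 37 reads (2.30-fold, 1.12 to 5.19). The copies of miR-218, a microRNA abundant in motor neurons, had intervals that include 1: Mir218-2 had 15 and 17 reads (0.706, 0.332 to 1.52) and Mir218-1 had 3 and 6 (1.25, 0.266 to 7.70). These genes were chosen after their values were seen, and their counts are too low to place them in an order. The Mir218 and the Mir219a genes are copies, and reads that align to more than 1 copy add to no gene. Their counts therefore do not show the level or the ratio of miR-218 or miR-219a.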
